A study of Homo sapiens with 6 samples.

Results

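Among the regions of DNA held by the nuclear matrix of HNRNPU knockdown cells, 2481 were also found in untreated H1 cells but not in cells with a control hairpin. These regions were chosen by 2 overlaps: each shHNRNPU region had to overlap a region of the hPSC list by at least 1 bp and no region of the shLUC list. They were 6.84% of the 36277 shHNRNPU regions and covered 992.4 kb. Since the choice was made on the lists themselves, the overlap counts and offsets are a description of the selected regions, and none of them was tested.

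The lists come from MAR-seq, in which nuclei are stripped with detergent, fixed and cut with restriction enzymes, and the DNA that stays with the nuclear matrix is sequenced. All 6 samples were H1, an established human pluripotent stem cell line, grown in mTeSR1 medium on Matrigel, and they formed 3 groups of 2: hPSC, which were untreated, shHNRNPU, which carried a hairpin RNA directed at HNRNPU, and shLUC, the control, whose hairpin is named after luciferase. Each group was represented by 1 list of 400 bp regions without heights or depth, so no value below has a replicate error, and intervals are 95% Wilson intervals that cover the counting of regions only. How the hairpins were delivered and selected, for how long and in how many clones, was not given in the sources used here, no batch was given, and neither the knockdown nor the cell type could be checked, because the lists hold no expression values. The untreated group also differs from both hairpin groups in carrying no hairpin, which cannot be told apart from any difference in library preparation or region calling.

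The nuclear matrix is the network of protein and RNA that remains after soluble material has been extracted from the nucleus, and the DNA sequences that bind to it are called matrix or scaffold attachment regions. HNRNPU, also known as scaffold attachment factor A, is an abundant nuclear protein that binds both RNA and such DNA. Matrix attachment has been described at gene boundaries, at replication origins and along chromatin loops, and the part of HNRNPU that binds DNA recognises AT-rich sequence.

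To show what DNA such a region holds at a gene, the 250 bases before the transcription start are given for 6 genes, all from the gene lists described below, whose 300 base promoter window (250 bases before to 50 after the start) lay wholly inside a selected region. The sequences are those of RefSeq on GRCh38.p14, written 5′ to 3′ along transcription. Capitals mark sites of the enzymes used in the digestion: CCGG (MspI), GGCC (HaeIII), GTAC (RsaI), AGCT (AluI), GGATCC (BamHI) and CAGCTG (PvuII). Each site reads the same on both strands, MspI and HaeIII sites can share bases, and each PvuII site contains an AluI site and was therefore not added to the total.
L1TD1, chr1:62194599-62194848, plus strand: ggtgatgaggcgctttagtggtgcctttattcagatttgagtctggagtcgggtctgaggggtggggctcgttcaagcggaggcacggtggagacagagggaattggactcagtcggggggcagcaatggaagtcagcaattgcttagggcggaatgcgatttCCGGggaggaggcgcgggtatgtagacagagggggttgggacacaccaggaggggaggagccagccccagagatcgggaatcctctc
EIF3J, chr15:44536897-44537146, plus strand: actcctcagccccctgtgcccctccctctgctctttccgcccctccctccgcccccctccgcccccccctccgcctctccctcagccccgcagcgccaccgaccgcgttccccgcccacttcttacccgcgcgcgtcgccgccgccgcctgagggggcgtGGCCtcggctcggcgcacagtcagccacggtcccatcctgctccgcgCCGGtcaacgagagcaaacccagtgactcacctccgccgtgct
ZNF428, chr19:43619630-43619879, minus strand: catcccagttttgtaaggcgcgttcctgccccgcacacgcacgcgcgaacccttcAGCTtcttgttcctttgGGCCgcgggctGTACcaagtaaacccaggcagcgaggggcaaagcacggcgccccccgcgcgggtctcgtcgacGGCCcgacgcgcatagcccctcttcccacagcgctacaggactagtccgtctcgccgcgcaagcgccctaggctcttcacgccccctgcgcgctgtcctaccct
ZNF568, chr19:36916082-36916331, plus strand: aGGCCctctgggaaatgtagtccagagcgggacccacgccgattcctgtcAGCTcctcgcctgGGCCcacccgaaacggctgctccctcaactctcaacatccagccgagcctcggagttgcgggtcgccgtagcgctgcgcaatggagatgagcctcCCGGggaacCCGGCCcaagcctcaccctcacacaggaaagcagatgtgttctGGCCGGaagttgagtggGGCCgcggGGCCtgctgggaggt
ZNF222, chr19:44025129-44025378, plus strand: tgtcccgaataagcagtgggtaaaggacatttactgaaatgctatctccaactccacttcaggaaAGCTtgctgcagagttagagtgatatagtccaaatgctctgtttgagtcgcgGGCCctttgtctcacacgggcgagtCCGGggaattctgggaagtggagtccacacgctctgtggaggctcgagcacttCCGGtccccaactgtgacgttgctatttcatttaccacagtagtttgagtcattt
ZNF614, chr19:52028380-52028629, minus strand: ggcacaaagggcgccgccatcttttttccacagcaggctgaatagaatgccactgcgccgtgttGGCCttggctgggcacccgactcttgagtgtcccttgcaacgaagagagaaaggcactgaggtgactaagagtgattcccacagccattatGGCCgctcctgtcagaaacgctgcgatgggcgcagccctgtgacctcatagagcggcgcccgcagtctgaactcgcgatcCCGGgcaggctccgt

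The L1TD1 promoter, of a gene for an RNA-binding protein of pluripotent cells, held 1 site in these 250 bases and 12 CpG dinucleotides, with a GC content of 59.6%. The EIF3J promoter, of a translation initiation factor subunit, held 2 sites and 29 CpG at 74.4% GC. The 4 others belong to zinc finger genes on chromosome 19. ZNF428 held 4 sites and 30 CpG, ZNF222 held 4 sites and 10 CpG, and ZNF614 held 3 sites and 17 CpG. ZNF568 had 10 sites, the most of the 6, of which 6 were HaeIII sites. The 6 stretches thus ranged from 49.6% GC in ZNF222 to 74.4% in EIF3J. The regions at L1TD1, ZNF428 and ZNF222 had the same coordinates in the hPSC list, and those at EIF3J, ZNF568 and ZNF614 were shifted by 48 to 55 bp. In all, 138 promoter windows of 135 genes lay wholly inside a selected region, and 8 of these genes were on the gene lists.

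The match to the untreated list was most often exact. Of the 2481 regions, 1590 (64.1%) had the coordinates of an hPSC region to the base, and 891 (35.9%) overlapped one at other coordinates. These are called identical and shifted below. Among shifted regions the hPSC region lay a median of 119 bp away (quartiles 53 and 216 bp), to the right in 467 and to the left in 424. Only 42 were shifted by 1 to 10 bp, whereas 246 were shifted by over 200 bp, and none overlapped 2 hPSC regions.

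**Figure D1:**
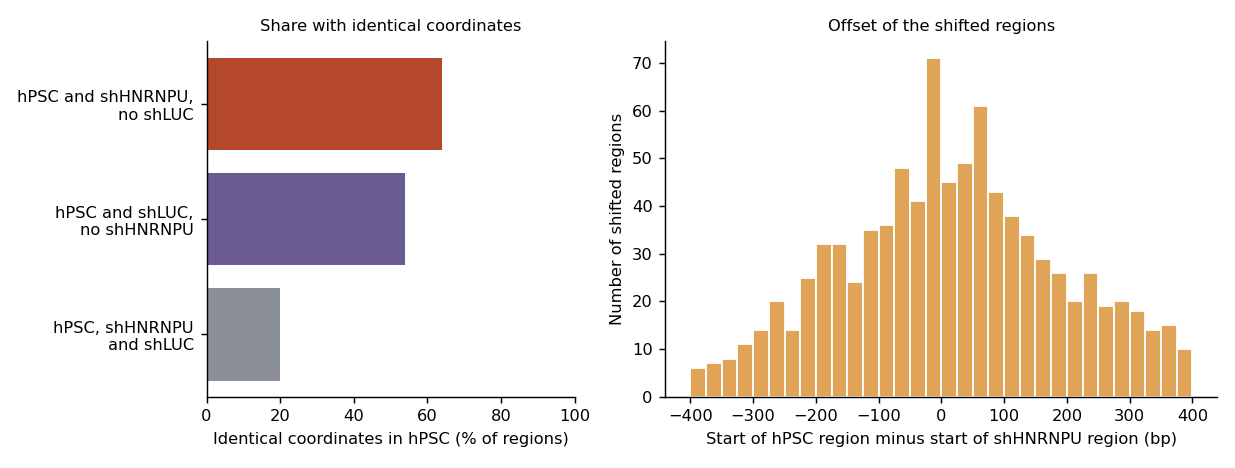
Left, share of regions (%) with identical coordinates in the hPSC list among regions of hPSC and shHNRNPU without shLUC (64.1% of 2481), of hPSC and shLUC without shHNRNPU (53.8% of 1807) and of all 3 lists (20.0% of 3801); each bar is 1 count without replicates. Right, for the 891 shifted regions, the number in each 25 bp bin (y axis) by the start of the hPSC region minus that of the shHNRNPU region in bp (x axis), with offsets on both sides of 0.

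For comparison, 1807 shLUC regions overlapped an hPSC region and no shHNRNPU region, and 973 of them (53.8%) were identical in hPSC. Among the 3801 shHNRNPU regions that overlapped both other lists, 762 (20.0%) were identical in hPSC. Taken over the whole list, 2352 shHNRNPU regions had identical coordinates in hPSC, and 1590 of these had no shLUC region. These 3 sets share the hPSC list, and the values are set side by side without a test. The background for both choices is that 23.2% of all shHNRNPU regions had no shLUC region and 17.3% had an hPSC region, and since the rule used both, nothing is read from the number of regions chosen.

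At the edges of the rule, 38 of the selected regions overlapped their hPSC region by under 50 bp, and 12 shHNRNPU regions without a shLUC region missed an hPSC region by 0 to 49 bp. On the side of the control hairpin, 5 selected regions had a shLUC region under 50 bp away, the closest at 2 bp. A further 3801 shHNRNPU regions with an hPSC region were not chosen because a shLUC region overlapped them, and for 3800 of those the shLUC region had the same coordinates. The nearest shLUC region lay a median of 21.7 kb away (quartiles 9.49 and 44.8 kb), 22.7 kb for identical and 19.3 kb for shifted regions. It was within 1 kb for 56 regions (2.26%), within 5 kb for 286 (11.5%) and within 50 kb for 1937 (78.1%). The regions of shHNRNPU alone, found in neither other list, had a median of 19.8 kb. The rule had removed every region that overlapped a shLUC region, so smaller displacements could not appear among these gaps. Of the removed regions with an hPSC region, 3800 of 3801 had the shLUC coordinates and were not displaced. Among the selected regions, a shLUC region within 1 kb was rare (2.26%). The regions of shHNRNPU alone were also chosen without a shLUC region, so nothing is read from the similar medians.

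The regions were then placed relative to genes. The centre lay within 1 kb of a protein-coding gene end, that is either boundary of the gene, for 694 of the 2481 regions (28.0%, interval 26.2 to 29.8%), where all shHNRNPU regions gave 14.4%. The identical and shifted regions differed in this share, with 297 of 1590 (18.7%, interval 16.8 to 20.7%) against 397 of 891 (44.6%, interval 41.3 to 47.8%). The share was 19.3% over all hPSC regions and 13.0% over all shLUC regions. Thus the identical regions were close to the hPSC list as a whole, and the shifted regions lay at gene ends more often than the regions of any of the 3 complete lists.

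The same difference between identical and shifted regions was present in the other overlap sets. In the shLUC regions with an hPSC region and no shHNRNPU region, 21.3% of identical and 41.5% of shifted regions lay at gene ends, and 30.6% of both together. In the regions of all 3 lists the values were 34.4% and 48.9%, and 46.0% together. The regions of shHNRNPU alone were at gene ends in 10.1% of cases. The selected regions therefore lay between the regions of shHNRNPU alone and those of all 3 lists in this share, and their interval (26.2 to 29.8%) overlapped that of the shLUC counterpart (28.5 to 32.8%).

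**Figure D2:**
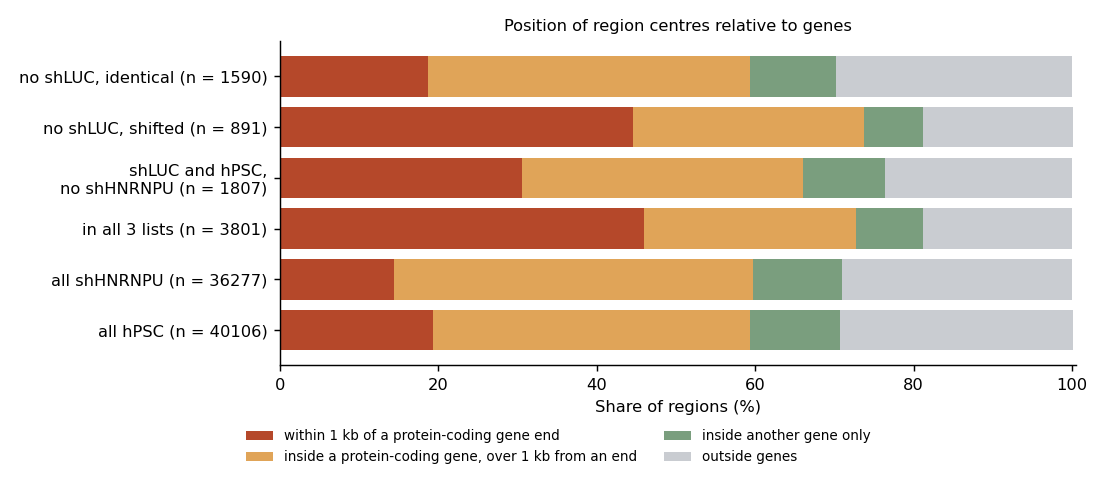
Share of region centres (%, x axis) within 1 kb of a protein-coding gene end, inside a protein-coding gene over 1 kb from an end, inside another gene only, or outside genes, for 6 sets of regions (y axis, with the number of regions). Gene ends took 44.6% of the shifted and 18.7% of the identical regions without a shLUC region, against 14.4% of all shHNRNPU and 19.3% of all hPSC regions.

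Away from gene ends, 905 regions (36.5%) lay inside a protein-coding gene, with 40.6% of the identical and 29.1% of the shifted regions. Over all shHNRNPU regions this was 45.3%. A further 239 regions (9.63%) lay in a gene of another kind only, such as a long non-coding RNA gene, and 643 (25.9%) lay outside genes, against 11.2% and 29.1% of all shHNRNPU regions. Outside genes, identical regions were again more frequent (29.8%) than shifted ones (19.0%). The intergenic regions lay a median of 36.5 kb from the nearest end of a protein-coding gene, and those of the whole shHNRNPU list 51.2 kb. Counting all centres in a protein-coding gene, ends included, gave 56.2% for the selected regions and 56.1% for all shHNRNPU regions.

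Gene ends were separated into starts and 3′ ends with the strands of the promoter table, which holds no window on chromosome 8. It has windows for 15843 of the 20037 protein-coding genes, and only these could be counted. Of the 2353 selected regions on the other chromosomes, 632 (26.9%, interval 25.1 to 28.7%) had their centre within 1 kb of a transcription start of a protein-coding gene, and 49 (2.08%) within 1 kb of a 3′ end. All shHNRNPU regions gave 12.6% and 1.62%. The difference from the whole list was thus larger at starts than at 3′ ends. The share at starts was 17.5% for identical and 43.6% for shifted regions. Within 200 bp of a start lay 435 regions (18.5%), with 12.4% of identical, 29.3% of shifted and 7.36% of all shHNRNPU regions. The shLUC regions with an hPSC region and no shHNRNPU region gave 29.4% within 1 kb and 19.5% within 200 bp. The shHNRNPU regions that overlapped both other lists gave 42.9% and 26.9%, and all hPSC regions gave 17.7% and 11.1%. A higher share at starts than in all shHNRNPU regions was thus not particular to the selected regions.

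Regions at starts sat close to the start itself. In 433 of the 632 regions the start lay inside the 400 bp. The centre was a median of 45.5 bp downstream of the start (38 bp for identical, 53 bp for shifted regions), with 384 centres downstream and 244 upstream. The median over the 4345 shHNRNPU regions at starts was 91 bp downstream, and the selected regions are among them. For the 369 shifted regions at starts, the hPSC region lay on the upstream side in 181 and on the downstream side in 188. It was nearer the start in 164, and the shHNRNPU region was nearer in 204. The shifts at starts therefore ran in both directions along transcription. The nearest shLUC region was a median of 21.1 kb from these 632 regions, and for 82 (13.0%) it was within 5 kb.

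**Figure D3:**
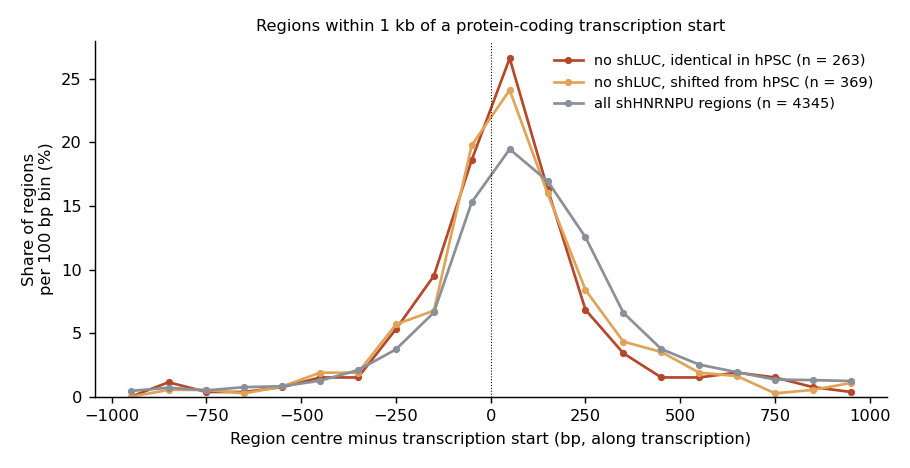
Position of region centres relative to the transcription start in bp along transcription (x axis) as the share of regions per 100 bp bin (%, y axis), for identical (n = 263) and shifted (n = 369) regions without a shLUC region and all shHNRNPU regions (n = 4345). All 3 lines peak just downstream of the start, with median positions of 38, 53 and 91 bp.

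The regions whose centres were closest to a start show both kinds of match at single base scale. The identical region at TIMM29, which codes for a subunit of a protein import complex of the mitochondrial inner membrane, lay at chr19:10928612-10929011 with its centre on the start. The identical region at SRRM3, a splicing regulator, lay at chr7:76201697-76202096, also with its centre on the start. The region at ZNF691 was at chr1:42846413-42846812 with its centre 1 bp from the start, as was that of an identical region at CCT5. TIMM29, SRRM3 and ZNF691 had no shLUC region within 15 kb of these regions, with gaps of 15294, 33003 and 17317 bp.

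Among the shifted regions, that at GANAB, the catalytic subunit of glucosidase II, was centred on the start (chr11:62646414-62646813), and the hPSC region was centred 86 bp further downstream. The region at chr15:73992096-73992495 was centred on a start annotated for STOML1, 2327 bp inside the gene, with the hPSC region 197 bp downstream. At DIS3L2, a 3′ to 5′ exoribonuclease, the centre was 1 bp from the start (chr2:231961513-231961912) and the hPSC region was displaced by 11 bp. A shifted region at EEF1A1 was equally close. DIS3L2 had 10 shLUC regions elsewhere in the gene, of which the nearest was 9486 bp from the selected region.

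Promoter windows were overlapped by 576 selected regions (24.5%), with 16.5% of the identical, 38.6% of the shifted and 10.2% of all shHNRNPU regions. The share was 25.7% for shLUC regions with an hPSC region and no shHNRNPU region. It was 36.4% for shHNRNPU regions that overlapped both other lists and 15.7% for all hPSC regions. A higher share than in all shHNRNPU regions was thus not particular to the selected regions here either. Of the 576, 118 (20.5%) overlapped windows of different genes on both strands, as at divergent promoters, with 17.0% over all shHNRNPU and 20.7% over all hPSC regions at promoters. The 576 regions touched 773 windows of 701 genes, of which 617 windows belonged to protein-coding genes and 156 to long non-coding RNA genes.

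Because the assay cuts DNA with restriction enzymes, the sites capitalised in the printed promoters were counted in all windows. The 773 windows held 8.44 ± 4.03 sites per 300 bases (mean and SD over windows), against 6.43 ± 4.19 over all 35116 windows of the table. Windows of identical regions held 7.85 and those of shifted regions 8.88. The windows of all shHNRNPU regions held 9.56 and those of all hPSC regions 8.21. Promoters of the selected regions thus had more sites than promoters at large and fewer than those of the shHNRNPU list as a whole. The windows that regions of all 3 lists overlapped held 9.46.

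The enzymes differed in this respect. An MspI site was present in 92.1% of the 773 windows and 63.1% of all windows, with means of 3.33 and 2.04 sites. A HaeIII site was present in 93.7% and 79.0%, with means of 3.45 and 2.54. For RsaI, AluI and PvuII the order was turned. RsaI sites were in 23.7% of the windows against 29.8% of all, AluI sites in 71.4% against 74.1%, and PvuII sites in 13.8% against 17.9%. BamHI sites were in 8.93% against 6.83%. The windows of all hPSC regions differed from all windows in the same directions, with MspI sites in 90.7% and RsaI sites in 26.9%. Base composition moved with these counts. The GC content was 66.0% in the 773 windows, with 64.0% for identical and 67.5% for shifted regions, against 57.5% in all windows and 70.3% in those of all shHNRNPU regions. The windows held 27.8 CpG on average (24.8 for identical, 30.1 for shifted), against 16.9 in all windows. The part of GC content and of cutting sites in the position of the regions was not tested.

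The regions were spread over the genome. A selected region was present in 1510 of the 2881 windows of 1 Mb that held a shHNRNPU region, with 1 region in 855 of them, 2 in 422, 3 in 170 and 4 or more in 63. Neighbours were separated by a median gap of 659 kb, and 25 neighbouring pairs were under 10 kb apart. The highest number in a window was 6, reached in 4 windows. On chromosome 1 from 228 to 229 Mb the 6 regions, 3 of them identical, included regions inside TRIM17 and RHOU and at H2AC25. On chromosome 2 from 42 to 43 Mb they lay inside EML4, KCNG3 and MTA3, which held 2, and near HAAO, and 2 were identical. On chromosome 6 from 30 to 31 Mb 5 of the 6 were identical, among them 2 in PPP1R11 and 1 in ABCF1, centred 20 bp from its end. The fourth window, on chromosome 6 from 125 to 126 Mb, had 2 regions in TPD52L1 and 1 in NCOA7. Those windows held 29, 31, 28 and 19 shHNRNPU regions in all, so that the selected regions were a minority in each.

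Across the autosomes, the selected regions were 6.78% of the shHNRNPU regions, from 4.39% on chromosome 21 to 8.07% on chromosome 7. On chromosome X they were 54 of 459 (11.8%), above every autosome, and 46 of the 54 (85.2%) were identical in hPSC. The identical share on autosomes went from 40.0% on chromosome 22 to 72.3% on chromosome 18. The shLUC regions with an hPSC region and no shHNRNPU region were 38 of the 475 shLUC regions on chromosome X, a share that also lay above that of every autosome. Chromosome Y held 1 selected region among 31. Counts on X and Y were small, and no difference between chromosomes was tested.

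**Figure D4:**
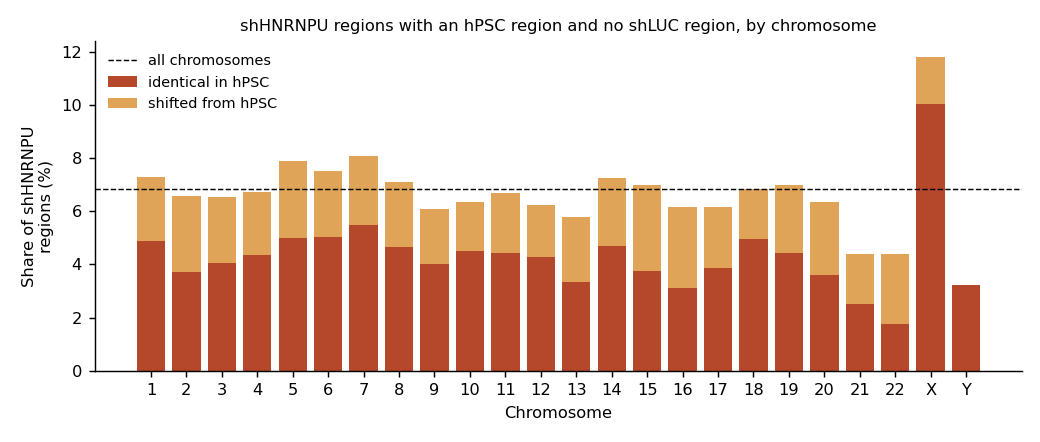
Selected regions as a share of the shHNRNPU regions of each chromosome (%, y axis; chromosomes on the x axis), divided into regions identical in and shifted from the hPSC list; the dashed line is the share over all chromosomes, 6.84%. Chromosome X stands highest at 11.8%, and chromosomes 21 and 22 are the lowest autosomes at 4.39% and 4.40%.

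At the level of genes, 1355 of 20037 protein-coding genes held the centre of at least 1 selected region, a share of 6.76%, and 786 had one within 1 kb of an end, a share of 3.92%. Of the 1355 genes, 1266 held 1 region, 80 held 2, 7 held 3 and 2 held 4. These genes were long, with a median length of 94.1 kb against 51.8 kb for genes with any shHNRNPU region and 24.1 kb for all protein-coding genes, and long genes have more room for regions of any list. Of the 1355 genes, 395 (29.2%) held no shLUC region at all, against 10.8% of the 9912 genes with any shHNRNPU region and 49.5% of all protein-coding genes. Of the 786 genes with a selected region at an end, 736 (93.6%) had no shLUC region at either end, against 23.6% of the 5623 genes with any shHNRNPU region at an end and 72.8% of all. The choice of regions without a shLUC overlap bears on both shares, and nothing is read from them.

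The genes that held most selected regions were long, from 355 kb in JMJD1C to 1550 kb in DAB1. UNC5D, a netrin receptor gene on chromosome 8, held 4, of which 2 were identical, among 8 shHNRNPU, 5 shLUC and 11 hPSC regions. UNC5D thus had regions of all 3 lists. None of its 5 shLUC regions overlapped the 4 selected ones, as the choice required.

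A further 6 genes of this ranking held 3 each. In JMJD1C, which codes for a protein of the histone demethylase family, TRIO, a guanine nucleotide exchange factor, FSTL4, a follistatin-like gene, and RAD51B, a gene of homologous recombination, all 3 regions were identical in hPSC. DAB1, an adaptor of reelin signalling, had 2 identical regions of 3 and NTM, a neuronal adhesion molecule, had 1 of 3. The number of shLUC regions in these genes went from 7 in TRIO to 20 in DAB1. Relative to length, JMJD1C came first among genes with at least 3 selected regions, with 0.846 per 100 kb, and TRIO next with 0.818. The JMJD1C region at chr10:63521186-63521585 was centred 505 bp inside the start of the gene, where the hPSC list had the same coordinates and the nearest shLUC region was 8070 bp away.

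Selected regions were present at both ends of 3 genes. STYX, a pseudophosphatase gene, had identical regions at chr14:52730064-52730463 and chr14:52775509-52775908 and no shLUC region in the gene or at its ends, with the nearest 34064 bp away. SEC24A, a subunit of the COPII vesicle coat, had a region shifted by 81 bp at chr5:134648687-134649086 and an identical one at chr5:134728461-134728860, and the nearest shLUC region was 105554 bp away. TEX29 had an identical region at chr13:111315577-111315976 and one shifted by 242 bp at chr13:111344966-111345365, with 2 shLUC regions inside the gene. STYX and SEC24A held no shLUC region inside, as did 49.5% of all protein-coding genes, and 72.8% of all had none at an end. That no shLUC region overlapped the selected regions follows from their choice.

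Gene lists for functions of these cells were then read against the 3.92% of all protein-coding genes. Of 36 pluripotency regulators, 2 had a selected region at an end, L1TD1 and FGF2. Inside the gene 3 held one (8.33%, against 6.76% of all genes), FGF2, ESRRB and LIN28B. The LIN28B region was centred 229 bp from an annotated start, with a shLUC region 2 bp away. FGF2, the growth factor that sustains human pluripotent cells, held 2 selected regions, 3 hPSC regions and no shLUC region. One, at chr4:122826821-122827220, was shifted by 394 bp from hPSC and centred 189 bp from an annotated start. The other, at chr4:122880660-122881059, was identical. At L1TD1 the region chr1:62194595-62194994, identical in hPSC, was centred 55 bp from the start, and the nearest shLUC region was 82066 bp away. SOX2, NANOG and POU5F1 held no selected region, and neither did LMNB1, the gene of lamin B1. Only 6.76% of all protein-coding genes held one, so nothing is read from this absence. NANOG and POU5F1 had no shHNRNPU region inside or at an end.

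Of 44 genes for nuclear matrix, lamina and architectural proteins, 1 had a selected region at an end, and this was HNRNPU itself, the target of the hairpin. That region (chr1:244864105-244864504) was centred 239 bp downstream of the start and the hPSC region 83 bp downstream, a shift of 156 bp. A shLUC region lay 463 bp away at coordinates that the shHNRNPU list also held. Among 25 hnRNP genes, a list that did not count HNRNPU, 2 (8.0%) had a selected region at an end, beside 3.92% of all protein-coding genes. They were PCBP1 and HNRNPM, both shifted from hPSC, by 178 and 161 bp.

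Genes of protein synthesis and turnover had selected regions at their ends in small numbers. Proteasome subunits had 5 of 48 (10.4%), PSMD14, PSMB7, PSMD9, PSMB5 and PSMD6, of which 3 were identical. Mitochondrial ribosomal proteins had 6 of 77 (7.79%), with MRPS33, MRPS35 and MRPS26 closest to the region. The offset of the hPSC start was 397 bp at MRPS33, 257 bp at MRPL4, -217 bp at MRPS26 and -116 bp at MRPL33. MRPS35 and MRPS34 had identical regions. Cytosolic ribosomal proteins had 5 of 86 (5.81%), among them RPL35A with its end 17 bp from the centre of an identical region, RPL37A and RPS15A. Genes with EIF symbols, mostly translation initiation factors, had 3 of 56 (5.36%), EIF3J, EIF4A1 and EIF2AK2, the last of which codes for a kinase of an initiation factor. The EIF4A1 region lay beyond the 3′ end of the gene, with its centre 315 bp before the start of CD68. These lists are small, and a single gene moves their shares by over 1 percentage point.

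Of all genes with a shHNRNPU region at an end, 14.0% had a selected one at an end (786 of 5623 genes). The ribosomal and proteasome lists were higher, with 6 of 10 genes for mitochondrial ribosomal proteins, 5 of 11 for proteasome subunits and 5 of 19 for cytosolic ribosomal proteins. These lists also had an hPSC region at an end more often than the 42.3% of all protein-coding genes: 55.8%, 70.8% and 57.0%. Nuclear matrix genes had an hPSC region at an end in 65.9% and a selected one in 2.27% (1 of 44 genes). RNA polymerase II subunits had an hPSC region in 66.7% and a selected one in 0 of 12. Counts of 0 and 1 gene are too small to be read against the 3.92% of all genes. The shares with a selected region count any overlap with hPSC of at least 1 bp. They were not recomputed for a larger overlap, which bears on genes with a large shift, such as MRPS33 (397 bp). No list was tested, and nothing is read from the higher shares either.

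**Figure D5:**
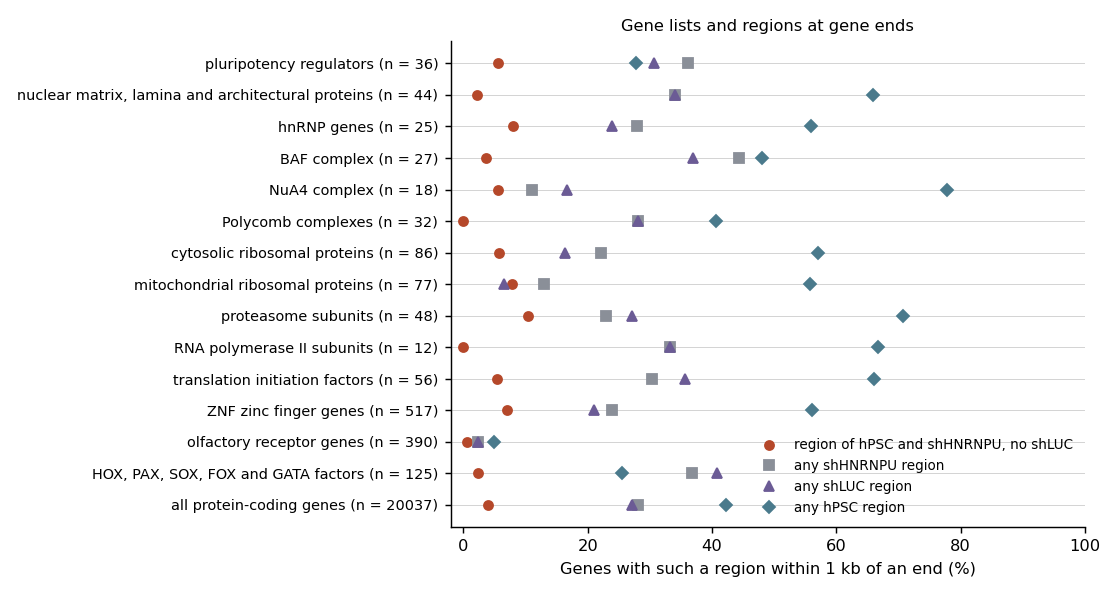
Genes of 14 lists and all protein-coding genes (y axis, n matched genes) with a region within 1 kb of an end, as a share of genes (%, x axis): selected regions, any shHNRNPU region, any shLUC region and any hPSC region. Selected regions lay at the ends of none to 10.4% of the genes of a list, against 3.92% of all, while hPSC regions lay at 4.87% to 77.8%.

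Zinc finger genes of the ZNF family, many of them transcriptional repressors, had a selected region at the end of 36 of 517 genes (6.96%). Of the 124 genes with a shHNRNPU region at an end, 29.0% had a selected one. An hPSC region was at an end of 56.1% of the 517 genes, against 42.3% of all protein-coding genes. Neighbouring genes can share a region, as ZNF829 and ZNF568 do, so the 36 genes do not all stand for separate regions. ZNF691 (1 bp), ZNF410 (6 bp), ZNF443 and ZNF793 (7 bp each) had the closest. The HOX, PAX, SOX, FOX and GATA families of developmental transcription factors had 3 of 125 (2.40%), a small count beside the 3.92% of all genes. A shHNRNPU region was at an end of 46 of their genes. The 3 were HOXD1, FOXD4L1 and SOX15, the last 2 identical in hPSC. These families had an shLUC region at an end in 40.8% of genes and an hPSC region in 25.6%, the reverse of the order over all genes (27.2% and 42.3%). Olfactory receptor genes had 2 of 390 (0.513%), and 2.31% of them had any shHNRNPU region at an end.

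Among chromatin complexes, the NuA4 acetyltransferase complex had a selected region at the end of 1 of 18 genes (5.56%), ING3, with an identical region at chr7:120950660-120951059 whose centre was 82 bp from the gene end. The BAF remodelling complex had 1 of 27 at an end (3.70%), ACTL6B, and 1 gene in each list is near the 3.92% of all genes. Inside the gene, 5 of the 27 (18.5%) held a selected region, against 6.76% of all genes. This share was not adjusted for gene length. Genes with a selected region inside had a median length of 94.1 kb, against 24.1 kb for all, so nothing is read from these 5 genes. Polycomb complexes had 0 of 32 and subunits of RNA polymerase II had 0 of 12. A shHNRNPU region was at an end of 9 and 4 of these genes, with shLUC regions at the same numbers of genes. With so few genes, nothing is read from a count of 0 beside the 3.92% of all genes.

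Selected regions overlapped the hairpins of 2 microRNAs. The share of all microRNA hairpins that each list overlaps is not given here, so nothing is read from this count. MIR7704 lies at HOXD1, in the region chr2:176188536-176188935, which was shifted by 366 bp from its hPSC region, and MIR3615 lies in the shifted region chr17:74748522-74748921. The MIR7704 hairpin ended at 176188901, and the hPSC region began at 176188902, so this hairpin lay outside the hPSC region. At MIR3615 the shift was 157 bp, and only part of the hairpin lay in the hPSC region. The mature sequences of both microRNAs in RefSeq are given 5′ to 3′ with the seed, bases 2 to 8, in capitals, and the seeds differ.
hsa-miR-7704, chr2:176188843-176188861, plus strand: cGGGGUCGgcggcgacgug
hsa-miR-3615, chr17:74748663-74748683, plus strand: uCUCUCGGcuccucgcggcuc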

How the data were processed

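MAR-seq was performed on H1 cells in 3 groups with 2 samples each. The authors deposited 1 list per group, which holds a chromosome, start, end and score for each region. The deposited score was 0 for every region, so scores were not used, and positions are genome positions, counted from 1 in the text. The submitters' processing notes name cutadapt, Bowtie2, SAMtools, MACS2, deepTools and hg38, without versions. The threshold, the use of the input, the pooling of samples and the setting of regions to 400 bp were not given in the sources used here, nor was read depth. The labels state RNA as the molecule, whereas their extraction protocol describes DNA. The paper given with the series does not describe this assay, so no methods were taken from it.

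Overlap meant at least 1 shared bp. Gene positions and sequences were from RefSeq (GRCh38.p14), with 20037 protein-coding genes and 35116 promoter windows of 300 bases. Promoter windows covered 23 of the 24 chromosomes, so starts and promoters on chromosome 8 are not analysed here. Of the 20037 protein-coding genes, 15843 had a promoter window. Starts and 3′ ends of the others were not counted. A region was placed by its centre, and a gene end is either boundary of a gene. Exons and introns are not analysed here. Intervals are 95% Wilson intervals over regions. No test was made, since each group has 1 list, and sites on neighbouring regions are not independent.

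The selected regions and the 14 gene lists were chosen with earlier results of these data known. Named genes were the 8 with most selected regions and the 4 with most per 100 kb among genes with at least 3, those with selected regions at both ends, the 3 closest in each gene list, the 3 identical and 3 shifted regions closest to a start (ties by position), the 1 Mb windows with most selected regions (4 tied), and HNRNPU, SOX2, NANOG, POU5F1 and LMNB1. Some genes that this rule names are not reported here. Other genes were named after their values were seen, where a count of a list was 6 or fewer. Printed promoters were those of genes on the lists that lay wholly inside a selected region, pluripotency and matrix genes first, then the closest. Alternatives were overlap of 50% of both regions, no shLUC region within 5 kb, autosomes, merging of regions under 1 kb apart, match within 10 bp and other gene and promoter definitions. Overlap counts were tested on simulated lists and against bedtools 2.31.1. Calculations were made in Python 3.11.15 (scipy 1.17.1, numpy 2.4.6 and pandas 2.3.3), and plots in matplotlib 3.10.9.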

Additional observations from a re-analysis of the deposited data

How the results depend on the processing

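Of 20 recomputed values 12 stayed within the limits of change set for them and 8 moved. The number of selected regions went from 2481 to between 2195 (no shLUC region within 5 kb) and 2448 (regions under 1 kb apart merged), and the identical share from 64.1% to at most 65.8%. The share at gene ends was 28.0% and became 35.6% with a distance of 5 kb, 34.5% with all genes and 25.8% with an overlap of 50% of both regions. The share inside protein-coding genes was 56.2% and became 61.6% with any overlap and 66.9% with all genes. The share that overlapped a promoter window was 24.5% and became 22.1% with protein-coding genes and 5.57% with the whole window inside the region. Wider distances and more genes add regions by construction, and the overlap of 50% removes shifted regions only. Sites per promoter were 8.44 and became 3.33 with MspI alone, which counts fewer sites by construction. Counting 1 window per gene, an alternative chosen after seeing the data, gave 8.42. In each gene definition shifted regions lay at gene ends more often than identical ones, with 52.4% and 26.1% at 5 kb and 51.7% and 24.8% with all genes.

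No paired analysis was possible because samples were not listed separately within a group, and leaving out a replicate could not be done for the same reason. Depth and calling threshold are unknown, and a region just under a threshold in shLUC would be counted as absent there.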
